A study of Mus musculus with 12 samples.

Results

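Neuronal immediate early genes were examined in the hippocampus of *Dek* cKO and WT mice. The 10 genes were *Fos*, *Fosb*, *Junb*, *Egr1*, *Egr2*, *Egr4*, *Arc*, *Npas4*, *Nr4a1* and *Ier2*, taken by gene symbol from the 26409 genes of the expression table, and all 10 had a value in each of the 12 libraries. The libraries came from bulk hippocampal RNA and formed 4 groups of 3, female WT, male WT, female *Dek* cKO and male *Dek* cKO. In the cKO mice, exons 3 and 4 of *Dek*, which encodes a chromatin protein, had been removed by CMV-Cre through loxP sites. The deletion was carried in the germline of a C57Bl/6 line from which Cre had been bred out, so it affected every cell type. The mice were 6 to 12 months old, had been through a series of behaviour assays, and were killed under isoflurane within 6 weeks of the last of these. Levels are in TPM, a unit that corrects for transcript length and scales each library to a common total, so levels of different genes can be compared.

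Immediate early genes are the first genes that a neuron transcribes after synaptic activity, and they need no newly made protein for it. Calcium entry and the ERK pathway act on factors already bound to their promoters, chiefly CREB at the cAMP response element (CRE) and SRF with its partners at the CArG box. Most of their products are transcription factors that switch on later genes, and in the hippocampus their level is widely used as a marker of recent neuronal activity, stress or handling. In bulk tissue, fewer active cells and less RNA per active cell cannot be told apart.

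*Dek* itself lay between 44.2 and 51.9 TPM in the 6 WT libraries and between 5.55 and 9.25 TPM in the 6 cKO libraries. The Y-linked gene *Eif2s3y* went against the labelled sex in 2 of the 12 libraries. It was at 72.7 TPM in the library labelled female cKO 3 and at 0.111 TPM in the library labelled male cKO 1. The other males lay between 69.0 and 92.0 TPM and the other females at or below 0.993 TPM. *Ddx3y*, *Kdm5d* and *Uty*, also Y-linked, went the same way. They were at 20.4, 3.67 and 10.8 TPM in female cKO 3 and at 0, 0.436 and 0.095 TPM in male cKO 1. Under the labelled sexes, each cKO group therefore holds a library with the Y-linked levels of the other sex. A quality figure of the study colours these 2 libraries with the sex opposite to their label, and every comparison that involves sex is therefore given with the labelled sexes, without both libraries and with the sexes of that figure. Library names also differed between groups, with one prefix in the 3 female WT libraries and another in the remaining 9, so that prefix cannot be told apart from genotype in females or from sex in WT mice. Neuron, granule cell, CA1 and CA3 markers were above 0 in the table, and the summed level of 6 neuronal markers varied only from 3822 to 4287 TPM, whereas 6 choroid plexus markers summed to between 45.8 and 4458 TPM.

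The promoters of several members are shown first, because known regulators of these genes bind close to the start site. Whether these sites bear on the levels below was not tested. RefSeq windows (build GRCm38.p6) were available for *Fos*, *Fosb*, *Junb*, *Egr2*, *Egr4*, *Npas4* and *Nr4a1*, while *Egr1*, *Arc* and *Ier2* are named only. Each sequence gives the 250 bases before the start, 5′ to 3′ on the strand of the gene. Capitals mark the CRE core TGACG, which reads CGTCA where it lies on the other strand, and also the TATA box, spelled TATAAA or TATATAA, and the CArG box where present. The windows are *Fos* at chr12:85473640-85473889 (+), *Egr2* at chr10:67537619-67537868 (+), *Egr4* at chr6:85513590-85513839 (-), *Npas4* at chr19:4989972-4990221 (-) and *Nr4a1* at chr15:101266596-101266845 (+).
Fos: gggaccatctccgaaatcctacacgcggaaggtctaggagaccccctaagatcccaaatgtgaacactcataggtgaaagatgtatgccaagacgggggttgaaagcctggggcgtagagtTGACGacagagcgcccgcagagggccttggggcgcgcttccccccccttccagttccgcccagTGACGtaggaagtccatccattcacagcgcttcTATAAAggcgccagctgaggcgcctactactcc
Egr2: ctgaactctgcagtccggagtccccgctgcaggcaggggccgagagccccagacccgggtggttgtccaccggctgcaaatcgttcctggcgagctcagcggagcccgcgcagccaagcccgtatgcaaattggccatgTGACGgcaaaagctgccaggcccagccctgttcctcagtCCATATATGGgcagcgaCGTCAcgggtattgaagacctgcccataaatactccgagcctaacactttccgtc
Egr4: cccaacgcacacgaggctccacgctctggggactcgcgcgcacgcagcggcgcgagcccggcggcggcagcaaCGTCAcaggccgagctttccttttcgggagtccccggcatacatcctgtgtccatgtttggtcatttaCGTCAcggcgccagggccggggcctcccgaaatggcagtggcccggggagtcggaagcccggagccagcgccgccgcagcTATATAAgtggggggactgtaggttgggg
Npas4: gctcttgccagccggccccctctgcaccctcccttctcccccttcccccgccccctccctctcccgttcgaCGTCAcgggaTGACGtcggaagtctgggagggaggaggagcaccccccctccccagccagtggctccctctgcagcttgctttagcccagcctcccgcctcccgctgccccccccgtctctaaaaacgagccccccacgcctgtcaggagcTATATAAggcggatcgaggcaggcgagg
Nr4a1: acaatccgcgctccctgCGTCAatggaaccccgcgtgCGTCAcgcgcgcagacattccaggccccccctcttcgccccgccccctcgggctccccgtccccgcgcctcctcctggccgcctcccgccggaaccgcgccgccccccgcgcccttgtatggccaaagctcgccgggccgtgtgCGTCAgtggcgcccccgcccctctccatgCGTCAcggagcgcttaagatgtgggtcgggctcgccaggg

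All 7 members with a window held at least 1 CRE core, against 19.8% of the 27025 genes with a window of the same length. The *Nr4a1* window held 4 of them, and the *Fos*, *Egr2*, *Egr4* and *Npas4* windows printed here 2 each. *Egr2* has 5 annotated starts, and 3 of its windows held the core. The full CRE, in which the core is followed by TCA, was found in 0 of the 7 members and in 1.77% of all genes. A CArG box was found in *Egr2* alone, against 1.62% of all genes, and a TATA box in *Fos*, *Egr4* and *Npas4*, against 15.9%. It was spelled TATAAA in *Fos*, at position -33, and TATATAA in *Egr4* and *Npas4*, at positions -29 and -28, and 14.3% and 3.6% of all genes held these spellings, which can overlap. Other spellings and bases farther from the start were not searched, so a member without a match may hold a site outside its window. These matches describe the letters of the windows and say nothing of which factor was bound.

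The mean level of the members ran from *Egr2* with a mean of 0.853 TPM (SD 0.669, n = 12) to *Arc* with 60.5 TPM (SD 27.0, n = 12). *Arc*, *Egr1* at 53.7 TPM and *Junb* at 44.8 TPM were the 3 highest, *Nr4a1* followed at 25.6 TPM, and *Fosb* at 3.59 TPM was the lowest but for *Egr2*. Between libraries each gene varied widely. The highest library was 9.96 times the lowest for *Fos* and 9.81 times for *Egr2*, and the ratio was smallest for *Fosb* (2.24). Gene coordinates given with the values are those of GENCODE M21 on GRCm38. The SD of log2(TPM + 0.1) over the 12 libraries had a median of 0.63 among the members, against 0.21 among the 18197 genes whose mean reached 0.1 TPM. Within the labelled groups the medians were 0.61 and 0.21. With the 2 libraries of conflicting sex left out the within-group medians were 0.50 and 0.19, and with groups formed by the sexes of the study's figure they were 0.46 and 0.20.

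*Fos* (ENSMUSG00000021250, chr12:85473890-85477273) encodes the AP-1 subunit most often used to mark active neurons. Its level was 15.2, 25.7 and 6.36 TPM in the female WT libraries, 6.89, 8.99 and 2.58 TPM in male WT, 9.51, 13.2 and 3.09 TPM in the libraries labelled female cKO, and 14.0, 8.05 and 25.3 TPM in those labelled male cKO. The highest values came from 1 WT and 1 cKO library, and the groups overlapped. *Junb* (ENSMUSG00000052837, chr8:84974484-84978718), a partner of Fos proteins in AP-1, was at 57.6, 76.0 and 38.7 TPM in female WT, 33.0, 48.6 and 26.7 TPM in male WT, 47.8, 52.5 and 29.4 TPM in female cKO, and 50.5, 34.7 and 42.1 TPM in male cKO. *Fosb* (ENSMUSG00000003545, chr7:19302696-19310051), whose products accumulate with repeated activity, lay between 2.44 and 5.45 TPM in WT and cKO libraries together, and its highest library was again female WT 2.

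The zinc finger factors of the EGR family bind GC-rich promoters, and *Egr1* is the member most used in memory studies. *Egr1* (ENSMUSG00000038418) was at 67.9, 96.8 and 42.9 TPM in female WT, 40.2, 49.0 and 29.8 TPM in male WT, 69.6, 80.0 and 25.1 TPM in female cKO, and 73.4, 28.9 and 40.4 TPM in male cKO. The low female cKO value and the high male cKO value are those of the libraries whose sex was in conflict. *Egr2* (ENSMUSG00000037868, chr10:67535475-67542188) was at 2.04, 1.99 and 0.602 TPM in female WT, 0.260, 0.461 and 0.585 TPM in male WT, 0.604, 1.62 and 0.208 TPM in female cKO, and 1.11, 0.295 and 0.470 TPM in male cKO. *Egr4* (ENSMUSG00000071341, chr6:85511121-85513589) ranged from 6.48 TPM in male cKO 3 to 24.5 TPM in female WT 2.

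*Arc* (ENSMUSG00000022602, chr15:74669083-74672570) encodes a postsynaptic protein that regulates AMPA receptor trafficking and is the only member here that is not a transcriptional or nuclear regulator. It was at 96.9, 120.1 and 47.9 TPM in female WT, 40.2, 51.7 and 29.0 TPM in male WT, 67.4, 69.5 and 38.2 TPM in female cKO, and 70.8, 32.9 and 60.9 TPM in male cKO. *Npas4* (ENSMUSG00000045903, chr19:4984355-4990316), a factor induced by calcium entry that shapes inhibitory synapses, was at 6.51, 11.4 and 4.88 TPM in female WT, 6.02, 6.202 and 2.79 TPM in male WT, 7.19, 9.42 and 3.10 TPM in female cKO, and 5.65, 3.44 and 2.42 TPM in male cKO. Both genes were highest in female WT 2, and neither separated the genotypes. The orphan nuclear receptor *Nr4a1* (ENSMUSG00000023034, chr15:101254269-101274795) was at 39.8, 62.9 and 17.3 TPM in female WT, 12.4, 20.8 and 13.6 TPM in male WT, 25.0, 34.8 and 12.2 TPM in female cKO, and 34.5, 15.3 and 18.4 TPM in male cKO. *Ier2* (ENSMUSG00000053560, chr8:84661331-84662852), a small nuclear protein, lay between 3.98 and 9.79 TPM and was the only member with its maximum in a cKO library, male cKO 3.

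**Figure D1:**
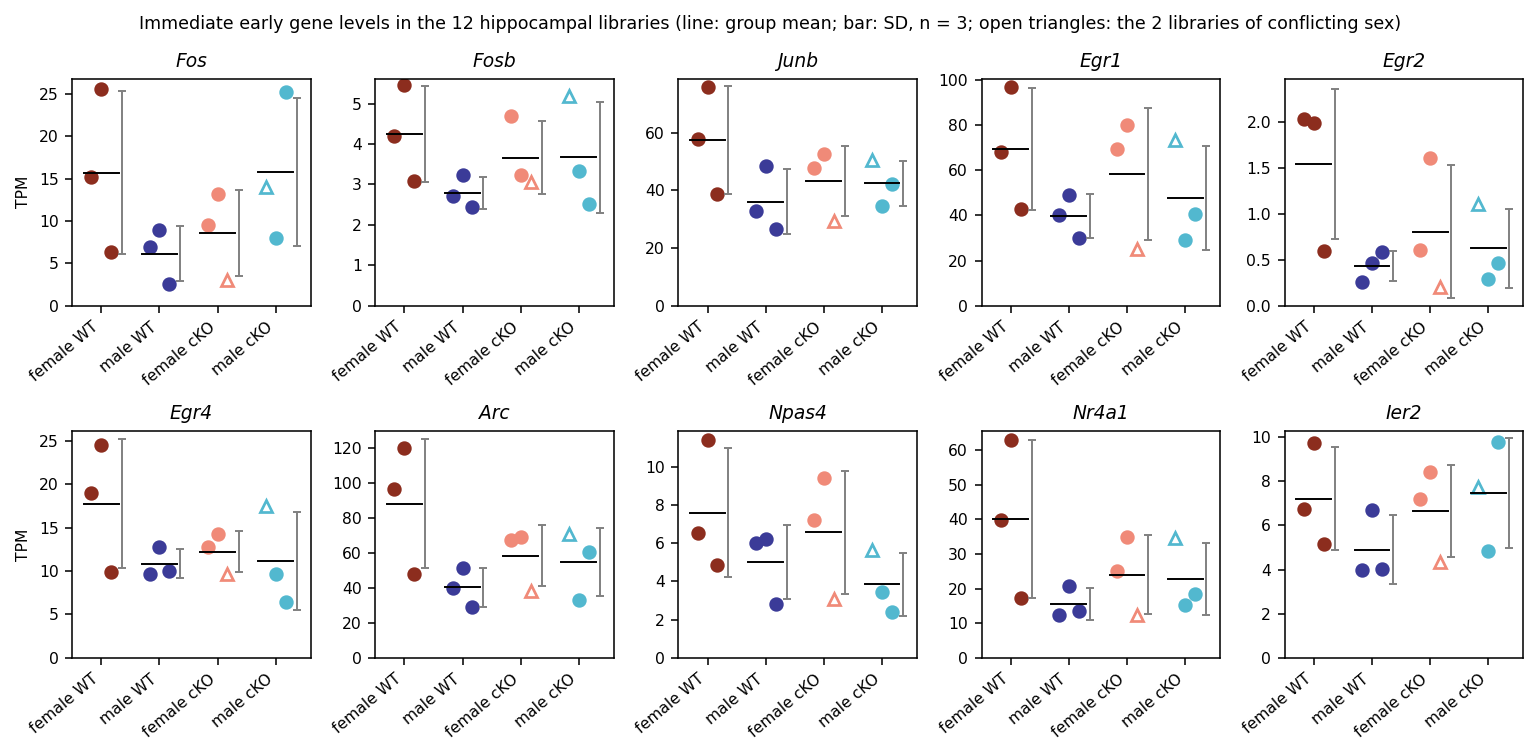
TPM of each of the 10 genes (vertical axes start at 0 and differ between panels) in the 4 labelled groups, with 1 point per library, the group mean as a line and the SD as a bar (n = 3). Open triangles are the 2 libraries of conflicting sex, and WT and cKO points overlap in every panel.

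Comparing genotypes across both sexes addresses whether the level of these genes differed between cKO and WT mice. No difference larger than the spread between libraries was found for any of the 10 members. In limma with Benjamini-Hochberg adjustment, 0 members passed an adjusted p under 0.05 with a fold over 1.2, where 0.148% of the 18197 genes tested did, and 0 members had an unadjusted p under 0.05, where 6.64% of the genes did. The log2 fold changes of cKO against WT (6 against 6 libraries) had a median of -0.07, beside 0.02 over all genes, with 3 members higher (55.8% of genes were) and 7 lower in cKO, and adjusted p-values from limma lay between 0.930 and 0.994. The largest were -0.35 (SE 0.52) for *Egr2*, -0.31 (SE 0.36) for *Npas4*, -0.26 (SE 0.27) for *Egr4* and 0.24 (SE 0.53) for *Fos*. For *Arc* the difference was -0.07 with a 95% interval from -0.77 to 0.63, and for *Junb*, the most narrowly bounded of the high genes, -0.07 with an interval from -0.56 to 0.43. Not one of the 10 had all 6 cKO values above or all 6 below the WT values, where 0.572% and 0.104% of the genes did.

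With each of the 12 libraries left out in turn, the direction changed at least once for 6 members, *Fos*, *Fosb*, *Junb*, *Egr1*, *Arc* and *Nr4a1*. It did not change for *Egr2* (-0.62 to -0.09), *Egr4* (-0.39 to -0.08), *Npas4* (-0.52 to -0.12) and *Ier2* (0.13 to 0.38). The median became 0.13 without female WT 2 and -0.24 without male WT 3. Without the 2 libraries of conflicting sex it was -0.03, 0 members passed, where 0.0879% of genes did, and 0 had an unadjusted p under 0.05, where 7.2% did. Against the 3 male WT libraries alone, which share their name prefix with the cKO libraries, the median was 0.37, beside 0.03 over all genes. In this fit 9 of the 10 were higher in cKO, with adjusted p-values from limma of 0.997 for every member. There 0 members passed, where 8 of 18097 genes did, and 0 had an unadjusted p under 0.05, where 863 did. The cKO libraries are of both sexes and these WT libraries are male only, so sex and genotype are not fully separated in it.

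**Figure D2:**
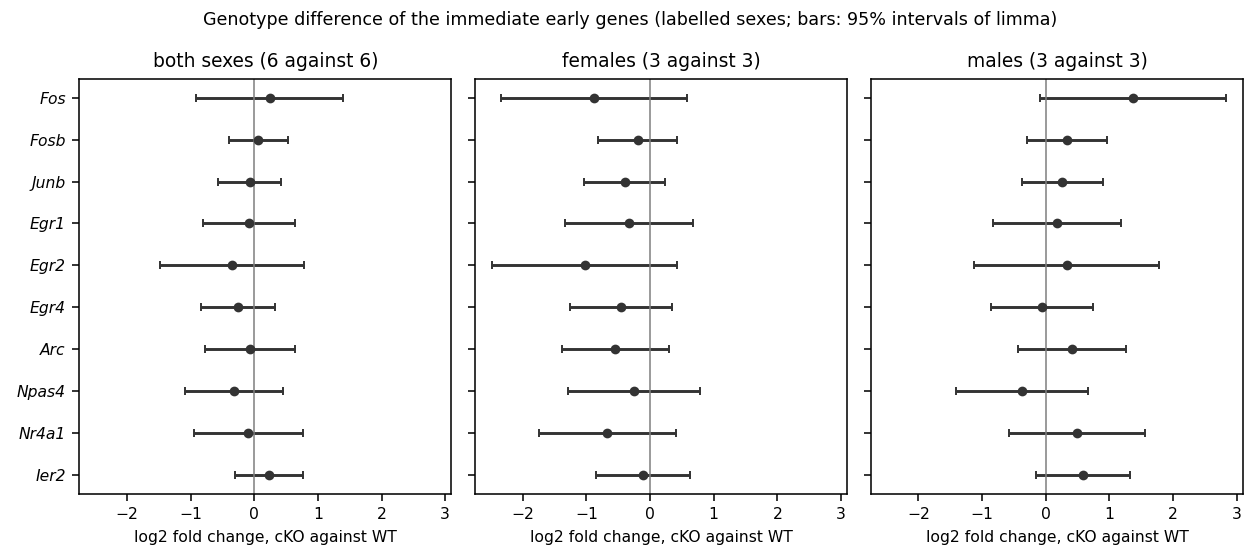
Log2 fold change of cKO against WT for each gene (points) with 95% intervals from limma (bars), in both sexes, in labelled females and in labelled males. Every interval in the 3 panels includes 0. The libraries of conflicting sex are included under their labels.

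Within labelled females all 10 members were lower in cKO (median log2 fold change -0.43, median of all genes 0.01, 3 against 3 libraries). The values ran from -0.12 for *Ier2* to -1.03 for *Egr2*. Because the members are correlated with one another, a direction shared by many of them is not 10 separate observations. None passed in limma (unadjusted p from 0.149 to 0.736, where 0.0165% of genes passed after adjustment), and 0 had an unadjusted p under 0.05, where 5.79% of genes did. Within labelled males 8 of the 10 were higher in cKO (median 0.33, median of all genes 0.02), *Fos* the most, by 1.37 (SE 0.67, unadjusted p = 0.0641, adjusted p = 0.880 in limma). Again 0 members passed, where 0.0165% of genes did, and 0 had an unadjusted p under 0.05, where 5.45% did. Female WT 2 was the highest library for 8 of the 10 genes, and without it the female median was -0.17. Without male cKO 1 the male median was 0.09.

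The difference between the male and the female genotype effect was tested as an interaction. It was above 0 for 9 of the 10 members (median 0.68, median of all genes 0.01), *Npas4* being the exception at -0.12. It was largest for *Fos*, at 2.25 (SE 0.94, unadjusted p = 0.0357, adjusted p = 0.966 in limma). *Fos* was the only member with an unadjusted p under 0.05, where 4.23% of genes had one, and no member and 0.0% of genes passed after adjustment. Leaving out the 2 libraries of conflicting sex made both cKO groups smaller. The median interaction was then 0.28, the female median -0.20 and the male median 0.09. In these 3 comparisons 0 members passed, where 0.011%, 0.0604% and 0.0385% of genes did. In each, 0 had an unadjusted p under 0.05, where 8.8%, 8.56% and 8.86% of genes did. With the sexes of the study's figure these 3 medians were 0.09, -0.15 and -0.00, with the interaction of *Fos* at 0.82 (SE 1.00). In that fit 0 members passed in the interaction, in females or in males, where 0.0165%, 0.0495% and 0.0275% of genes did, and 0 had an unadjusted p under 0.05, where 6.61%, 6.41% and 7.99% did.

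Between female and male WT mice the members shared a direction, but no difference passed the test. The 3 female WT libraries have one name prefix and the 3 male WT libraries the other, so sex and prefix cannot be told apart here. All 10 were lower in male WT than in female WT, from -0.54 for *Ier2* to -1.50 for *Egr2* on the log2 scale (median -0.71, median of all genes -0.01). The 3 largest after *Egr2* were *Fos* (-1.30, SE 0.67), *Nr4a1* (-1.20, SE 0.49) and *Arc* (-1.07, SE 0.38). In limma 4 members (*Arc*, *Nr4a1*, *Junb* and *Egr2*) had an unadjusted p under 0.05, where 3.63% of genes did, but every adjusted p was 1.00 and no member and 0.0% of genes passed. The members are correlated with one another, so their shared direction is not 10 separate observations. Without the 2 libraries of conflicting sex, which are both cKO and enter only the estimate of the spread, 6 members had an unadjusted p under 0.05, where 4.6% of genes did, and 0 passed, where 0.022% did (adjusted p = 0.984 in limma for every member). When the cKO groups were formed with the sexes of the study's figure, the SE of this difference was smaller for 9 members and larger for *Fos*, and in that fit 6 members had an unadjusted p under 0.05, where 4.16% of genes did, and 0 passed, where 0.033% did. Female WT 3 lay within the range of the male WT libraries for 9 of the 10 genes, and only *Egr2* had all 3 female WT values above all 3 male WT values, where 6.46% of genes did. Without female WT 2 the median was -0.45, and without female WT 3 it was -1.03. Some marker sums moved with this comparison (all genes of each list found and none at 0 in all libraries). The 5 blood markers summed to 1087 to 1547 TPM in female WT and 688 to 916 TPM in male WT, and the 6 CA3 markers to 243 to 276 and 216 to 223 TPM. The 6 thalamus markers summed to 47.9 to 54.2 and 32.1 to 43.2 TPM, and the 6 striatum markers to 56.8 to 60.3 and 63.9 to 75.1 TPM. Their part in the result was not tested.

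Male cKO against female cKO was compared after the values had been seen. With the labelled sexes the members did not share a direction (median -0.08, 2 higher and 8 lower in males), 0 had an unadjusted p under 0.05, where 7.02% of genes did, and no member and 0.0% of genes passed in limma. Leaving out the 2 conflicting libraries made both cKO groups smaller. The median was then -0.69, 2 members had an unadjusted p under 0.05, where 15.0% of genes did, and 0 passed, where 0.407% did. With the sexes of the study's figure all 10 were lower in male cKO (median -0.75, median of all genes -0.04). *Egr1* was then at 69.6 to 80.0 TPM in 3 females and 25.1 to 40.4 TPM in 3 males (log2 fold change -1.26, SE 0.27, adjusted p = 0.106 in limma). *Npas4* was at 5.65 to 9.42 TPM in these females and 2.42 to 3.44 TPM in these males (-1.27, SE 0.35, adjusted p = 0.169 in limma). The female values lay above the male values without overlap for 7 of the 10 members, where 10.8% of genes did so, and *Fos*, *Fosb* and *Ier2* overlapped. No member passed, where 0.0604% of genes did, and 6 had an unadjusted p under 0.05, where 13.7% of genes did. With members correlated with one another, these are not counts of separate observations. With the same sexes, the 6 cortex markers summed to 120.0 to 202.9 TPM in female cKO and 86.5 to 110.6 TPM in male cKO, and the 6 CA1 markers to 286.7 to 314.6 and 242.7 to 257.7 TPM. The 6 dentate granule markers were lower in these females, at 94.99 to 131.7 against 133.0 to 160.7 TPM, and so were the 6 striatum markers, at 55.8 to 61.1 against 64.0 to 88.1 TPM. None of these markers was at 0 in all libraries, and their part in the result was not tested.

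The average over genotype was likewise compared after the values had been seen. With the sexes of that figure, each of the 10 was lower in males (median -0.89). Since the members are correlated, this shared direction is not 10 separate observations. The values were -1.48 (SE 0.35) for *Egr2*, -1.12 (SE 0.27) for *Nr4a1*, -1.01 (SE 0.19) for *Egr1*, -0.93 (SE 0.25) for *Npas4*, -0.89 (SE 0.23) for *Arc* and -0.47 (SE 0.23) for *Ier2*. Unadjusted p-values were under 0.05 for 8 members, where 10.8% of genes had one, while adjusted p-values from limma lay between 0.126 and 0.545, so that 0 members passed, where 0.0824% of genes did. *Egr2* alone had all 6 female values (0.602 to 2.04 TPM) above all 6 male values (0.208 to 0.585 TPM), where 0.517% of genes did. Without the 2 conflicting libraries the median was -0.77, 8 members had an unadjusted p under 0.05, where 12.6% of genes did, and 0 passed, where 0.0879% did. With the labelled sexes the same average had a median of -0.46, 0 members passed and 0 had an unadjusted p under 0.05, where 0.0% and 5.87% of genes did. Every library with the less common name prefix is female, so prefix and sex are not fully separated in this average. Of the marker sums given for WT or for cKO mice, only that of the 6 striatum markers separated the sexes in both genotypes. It lay between 55.8 and 61.1 TPM in females and between 63.9 and 88.1 TPM in males. Day, time of killing and order of handling are not given by the labels. The part of each of these was not tested.

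**Figure D3:**
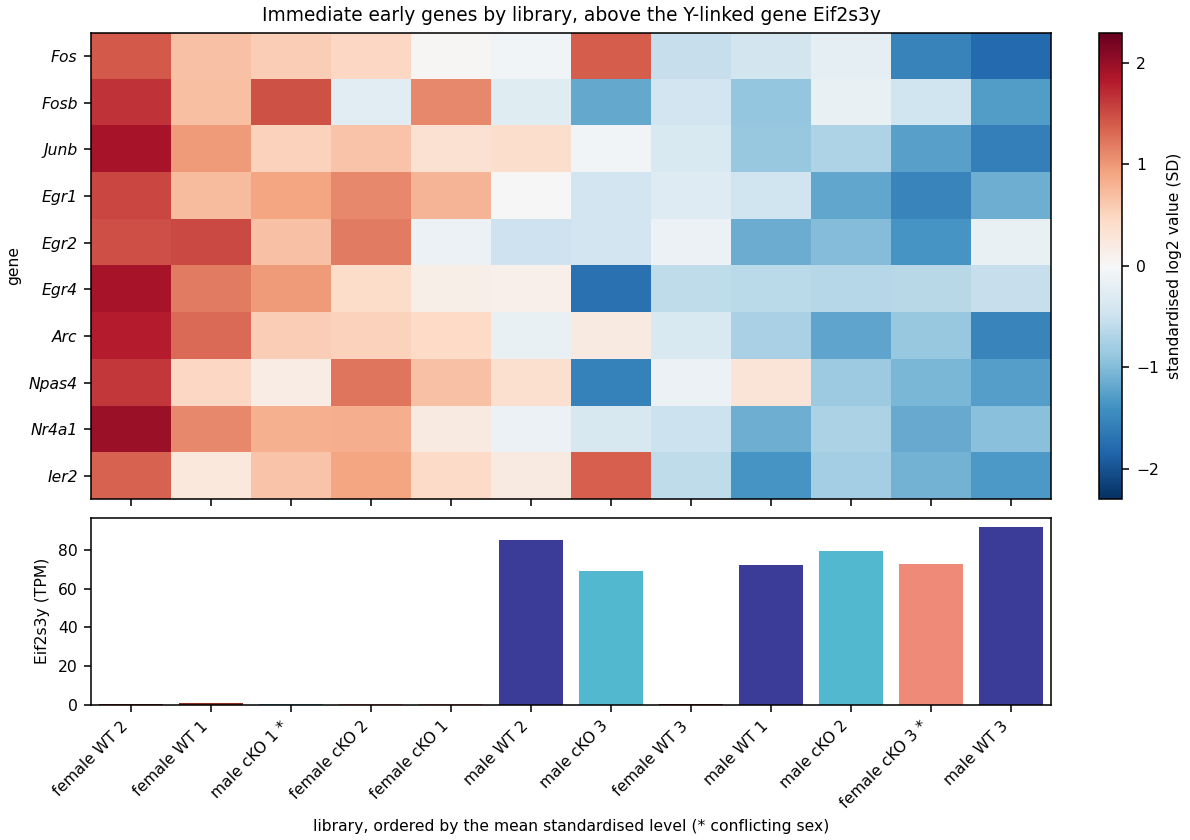
Standardised log2(TPM + 0.1) of each gene (rows, in SDs from its mean over 12 libraries) in the libraries ordered by the mean over the genes, above the TPM of *Eif2s3y* in the same libraries (bar colours are the labelled groups). The 5 libraries on the left have little *Eif2s3y*, and female WT 3 is the only library low in it on the right.

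The members rose and fell together from library to library. Of the 45 pairs, the median Pearson's r of log2(TPM + 0.1) over 12 libraries was 0.79 (from 0.41 to 0.96) and the median Spearman's rho 0.78. By permutation test with 100000 resamples and Benjamini-Hochberg adjustment over the 45 pairs, 39 pairs had an adjusted p under 0.05 by Pearson's r and 40 by Spearman's rho. Over all pairs of the 14160 genes whose mean reached 1 TPM the median r was 0.03, and 0.5% of them exceeded the median of the members. The highest were *Junb* with *Arc* (r = 0.96, rho = 0.95, permutation adjusted p = 0.000150), *Junb* with *Nr4a1* (r = 0.95, rho = 0.97) and *Arc* with *Nr4a1* (r = 0.93, rho = 0.93). *Nr4a1* had the highest median r with the other 9, 0.87, and *Npas4* the lowest, 0.72.

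*Fos* and *Ier2* stood somewhat apart from the rest. They were correlated with each other (r = 0.90, rho = 0.89, permutation adjusted p = 0.000225), but *Fos* had r = 0.41 with *Egr4*, 0.47 with *Npas4* and 0.50 with *Fosb*, and *Ier2* had 0.43 with *Egr4* and 0.45 with *Npas4*. Of the 6 pairs above an adjusted p of 0.05, these 5 and *Fosb* with *Ier2* (r = 0.52) made up all. Male cKO 3 ranked second for *Fos* and first for *Ier2*, but last for *Egr4* and *Npas4*. Without it the median r over the 45 pairs rose to 0.87, and with female WT 2 and male cKO 3, the 2 libraries farthest from the median of *Egr4*, left out, *Egr4* with *Ier2* reached r = 0.82. In the same library the 6 astrocyte markers (6 of 6 found, none at 0 in all libraries) summed to 2222 TPM, against 1284 to 1658 TPM in the other 11, and their part in the result was not tested.

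The correlation did not come only from differences between groups. Relative to the means of the labelled groups the median r was 0.76, and relative to groups by genotype and by the sexes that the study's figure shows it was 0.60. Over the 9 libraries with the common name prefix it was 0.68. The 3 libraries with the other prefix are 1 group and too few for a value of their own. With the 2 libraries farthest from the median of the first gene left out of each pair, the median was 0.71. The lowest value was r = 0.08 for *Fos* with *Npas4*, without male WT 3 and the library labelled female cKO 3. That value still included male cKO 3, which ranked second for *Fos* and last for *Npas4*. Relative to the means of the labelled groups this pair had r = 0.71. Female WT 2 was among the 3 highest libraries for all 10 members, female WT 1 and female cKO 2 for 6 each. At the other end, the library labelled female cKO 3 was among the 3 lowest for 9 members and male WT 3 for 8.

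**Figure D4:**
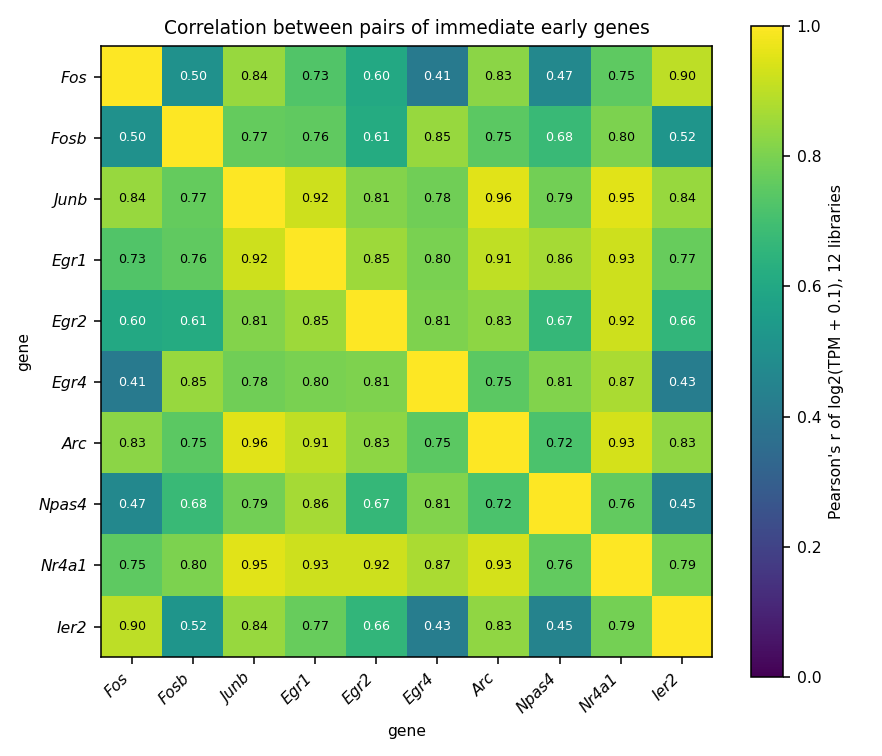
Pearson's r of log2(TPM + 0.1) over the 12 libraries for each pair of the 10 genes (colour and number, colour scale from 0 to 1). All 45 values are above 0, and the lowest, 0.41, is that of *Fos* with *Egr4*.

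Of the 14151 other genes whose mean reached 1 TPM, 3 reached r = 0.9 with the mean standardised level of the members, and 47 reached 0.8. The first was *Dusp1* (r = 0.95, 10.3 to 28.5 TPM), which encodes a phosphatase of MAP kinases and is an immediate early gene outside the 10. It was at 28.5 TPM in female WT 2 and 10.3 TPM in male WT 3, the same libraries as the extremes of *Fos*, *Junb* and *Arc*. *Sik1*, a kinase that restrains CREB coactivators (r = 0.88), was also among the 10 nearest. The other 8 were *Rmnd1* (0.93), *Shroom4* (0.91), *Depdc7* (0.89), *Dennd4b* (0.88), *Kmt2c* (0.88), *BC048403* (0.87), *Adat2* (0.87) and *Zfp30* (0.87). Most of these moved far less than the members, *Kmt2c* only between 29.4 and 33.5 TPM. The most negative were *Sdhd*, a subunit of succinate dehydrogenase (-0.89, 102.1 to 114.4 TPM), *Car5b* (-0.86) and *Ctf1* (-0.85).

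Other genes of the activity response were divided by role, and 0 of them passed in the comparison of both sexes by limma, where 0.148% of all genes did. Among 19 further primary response transcription factors, 1 was higher and 2 were lower in cKO at an unadjusted p under 0.05 (median log2 fold change -0.01), where 4.84% of all genes were higher and 1.8% lower at that p. The 2 were relatives of *Nr4a1*. *Nr4a3* was at 32.4 ± 5.02 TPM in WT and 24.6 ± 4.12 TPM in cKO (SD, n = 6; log2 fold change -0.40, SE 0.12, adjusted p = 0.454 in limma). *Nr4a2* was at 65.2 ± 12.4 TPM in WT and 44.97 ± 18.4 TPM in cKO (SD, n = 6; -0.62, SE 0.24, adjusted p = 0.664 in limma). Their ranges overlapped between genotypes, and neither difference passed. *Ier5* was at 21.4 ± 2.01 TPM in WT and 27.7 ± 7.09 TPM in cKO (SD, n = 6; 0.33, SE 0.15, adjusted p = 0.732 in limma). *Jun* and *Jund*, the 2 most abundant of the list, had log2 fold changes of 0.03 and -0.00, and *Jun* had r = -0.30 with the mean of the members.

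Of 22 primary response genes that are not transcription factors, 0 had an unadjusted p under 0.05, where 6.64% of all genes did (median log2 fold change 0.05). *Plk2*, a kinase of synaptic scaling, was at 114 ± 3.76 TPM in WT and 125 ± 20.6 TPM in cKO (SD, n = 6), and *Homer1*, a postsynaptic scaffold, at 65.9 ± 3.42 and 65.6 ± 9.63 TPM. *Rgs2*, a regulator of G protein signalling (log2 fold change 0.19), and *Ppp1r15a*, a stress-induced phosphatase subunit (0.09), were, with *Plk2*, the 3 genes of the list with the smallest unadjusted p. The list as a whole had a median r of 0.43 with the mean of the members, and the preceding list 0.41.

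Late response genes follow the first wave, and the 12 on the list had a median r of 0.01 with the mean of the members. Of the 12, 10 were higher in cKO (median 0.11), where 55.8% of all genes were. Both genes with an unadjusted p under 0.05 were higher, where 4.84% of all genes were higher at that p. *Nptx2*, a secreted pentraxin that clusters AMPA receptors, was at 15.7 ± 2.31 TPM in WT and 24.6 ± 10.7 TPM in cKO (SD, n = 6; log2 fold change 0.55, SE 0.24, adjusted p = 0.712 in limma). *Scg2*, a granin of secretory vesicles, was at 81.9 ± 6.10 and 95.6 ± 13.1 TPM (0.22, SE 0.08, adjusted p = 0.628 in limma). Both were highest in male cKO 3, at 44.1 and 118 TPM. *Crem*, a CRE-binding factor, differed by 0.14 (SE 0.08) and *Nrn1*, a neuritogenic surface protein, by 0.16 (SE 0.12).

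Of 29 genes of the signalling and transcription upstream of the members, 3 were higher and 2 lower in cKO at an unadjusted p under 0.05, where 4.84% and 1.8% of all genes were (median log2 fold change -0.02, median r with the members 0.07). *Elk3* was at 4.98 ± 0.718 TPM in WT and 6.42 ± 1.19 TPM in cKO (SD, n = 6; 0.35, SE 0.14, adjusted p = 0.664 in limma). *Elk1*, like *Elk3* a partner of SRF, differed by 0.12 (SE 0.05) and *Ppp3cb*, a catalytic subunit of calcineurin, by -0.08 (SE 0.04). *Camk2a* and *Ppp3ca*, the most abundant of the list, each differed by -0.08, with SEs of 0.07 and 0.05. Over the 29 genes the log2 fold changes ran from -0.85 to 0.35. Genes were named by unadjusted p and by level, not by the size of the change.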

How the data were processed

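RNA sequencing of hippocampus was available for 12 libraries, 3 per labelled sex and genotype. The authors deposited 1 table of TPM per gene and library. The paper's methods name STAR and Salmon on GRCm38, the submitters' processing notes list kallisto and mm10, and which of them wrote the table is not given in the sources used here. TPM keeps no read counts, so the depth is unknown and a count test could not be run. The columns summed to between 825750 and 845553 TPM, so part of the scaled transcripts is not listed. Gene identifiers were matched to GENCODE M21 (25262 of 26409).

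Values were analysed as log2(TPM + 0.1) where the mean reached 0.1 TPM, with limma (version 3.58.1, R 4.3.3), a trended prior variance, two-sided tests and Benjamini-Hochberg adjustment over all 18197 genes. A fold on this scale understates the change of low genes. The genotype comparison used 2 groups of 6 libraries, and the others 1 fit of 4 groups. Nothing in the labels describes how the replicates were sampled beyond their number, so p-values measure only the spread between these libraries, which may be technical. Correlations used two-sided permutation tests in Python 3.11.15 (pandas 2.3.3, numpy 2.4.6, scipy 1.17.1). The steps were tested on simulated data. The members, lists and markers were chosen with earlier results of these data known. Named genes are the members, the 10 genes with the highest and the 3 with the lowest r with their mean, and of each list the 3 with the smallest unadjusted p and the 2 most abundant. Alternatives changed the added TPM, filter, scaling, prior variance, covariate, pairing and libraries. Replicate numbers were not treated as pairs.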

Additional observations from a re-analysis of the deposited data

Results flagged for a closer look

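In the 6 cKO libraries *Nrn1*, a late response gene, was at 217.8, 215.8 and 255.8 TPM in those labelled female and at 231.6, 222.0 and 395.0 TPM in those labelled male. Male cKO 3 lay apart from the other 5, with a gap of 0.719 of the whole range on the log2(TPM + 0.1) scale, which exceeds the 95% critical value of Dixon's ratio for a group of this size. Chance alone puts about 1 group in 20 beyond it. *Nrn1* was not the only gene for which male cKO 3 lay at an end of the range. This library was also the highest for *Ier2*, *Nptx2*, *Scg2* and the summed astrocyte markers, and the lowest for *Egr4* and *Npas4*. The cause was not tested.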

How the results depend on the processing

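In every comparison 0 members passed under every alternative, with values added, filter, scaling, prior variance, covariate and single libraries changed in turn. Apart from leaving out 1 library, 28 values of single genes reversed, all of them short of the threshold before and after. With the commonly prefixed libraries only, all WT libraries are male, so sex is not fully separated from genotype. The genotype effect then became 0.26 for *Junb*, 0.30 for *Egr1*, 0.40 for *Egr2*, 0.052 for *Egr4*, 0.47 for *Arc* and 0.51 for *Nr4a1*. Without both libraries of conflicting sex it became -0.014 for *Fosb* in both sexes, 0.18 for *Egr1*, 0.20 for *Npas4* and 0.16 for *Ier2* in females, and -0.19 for *Egr1* and -0.12 for *Egr2* in males. The interaction became -0.37 for *Egr1* and -0.14 for *Egr4*, and among the cKO sexes *Ier2* became -0.17 and the median -0.69. With the sexes of the study's figure, chosen after seeing the data, the values were 0.051 for *Fosb*, 0.18 for *Egr1*, 0.025 for *Npas4* and 0.16 for *Ier2* in females, -0.33 for *Egr1*, -0.33 for *Egr2* and -0.0052 for *Nr4a1* in males, -0.51 for *Egr1* and -0.17 for *Egr4* in the interaction, and -0.48 for *Fos*, -0.39 for *Ier2* and -0.75 for the median among the cKO sexes. *Junb* among the cKO sexes was at 0.0088 after median ratio rescaling and 0.012 after quantile normalization. The median correlation was 0.68 without female WT 1 and 2, 0.68 in the 9 commonly prefixed libraries and 0.60 relative to groups with the sexes of the figure, all 3 added after seeing the data. The cause of these changes was not tested.

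With each library left out in turn, 62 values of single genes reversed. For both sexes the ranges were -0.26 to 0.15 for *Arc*, -0.23 to 0.11 for *Egr1*, -0.096 to 0.58 for *Fos*, -0.039 to 0.20 for *Fosb*, -0.21 to 0.088 for *Junb* and -0.27 to 0.20 for *Nr4a1*. For females the ranges were -0.65 to 0.18 for *Egr1*, -0.40 to 0.00055 for *Fosb*, -0.33 to 0.16 for *Ier2* and -0.58 to 0.20 for *Npas4*. For males the ranges were -0.19 to 0.48 for *Egr1*, -0.12 to 0.68 for *Egr2* and -0.44 to 0.27 for *Egr4*. For the interaction the ranges were -0.0038 to 0.83 for *Egr1* and -0.58 to 0.21 for *Npas4*. For the averaged sexes the ranges were -0.48 to 0.086 for *Fos*. For the cKO sexes the ranges were -0.39 to 0.22 for *Arc*, -0.76 to 0.077 for *Egr1*, -0.76 to 0.48 for *Egr2*, -0.61 to 0.10 for *Egr4*, -0.31 to 0.20 for *Fosb*, -0.12 to 0.43 for *Ier2*, -0.26 to 0.16 for *Junb* and -0.46 to 0.29 for *Nr4a1*. 

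Libraries that share a replicate number did not deviate together (correlations of -0.04 to 0.04), so the numbers were not taken as pairs. A replicate block sets a WT library against a cKO library in every block, so it cannot change the genotype effects, only their SEs. The medians were therefore again -0.07, -0.43 and 0.33 in both sexes, females and males. With the block 0 members passed, and the number of genes passing in both sexes went from 27 to 3. Over all genes, 13 passed in both sexes without a filter, 8 with the commonly prefixed libraries only and 16 without both libraries of conflicting sex. Leaving out these 2 libraries also moved the genes passing from 3 to 11 in females, from 3 to 7 in males and from 0 to 74 between the cKO sexes. TPM gives no read depth, and 3 libraries per group bound differences of these variable genes only loosely.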
